A study of Mus musculus with 6 samples.

Results

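Galanin, the tachykinins and neuropeptide Y (NPY) are short peptides that neurons release beside their fast transmitters, and each acts on G protein-coupled receptors. The genes described here are those of galanin (Gal) and its receptor Galr1, the tachykinin precursors Tac1 and Tac2 with the receptors Tacr1 and Tacr3, and Npy with the receptors Npy1r, Npy2r and Npy5r. They were found by symbol in the deposited count table and are 10 of its 22095 genes. The families were chosen by function and also selected on measured values, since the left against right fold changes of these libraries, among them that of Gal, were known when they were put together. The side differences below are therefore descriptions, and their adjusted p-values, from a fit over all genes, give no independent support.

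Messenger RNA was sequenced from olfactory bulbs of 3 ICR mice, an outbred stock. In every mouse the left naris was closed with a silica gel plug at postnatal day 30, and both bulbs were dissected 60 days later, so the right bulb of a plugged mouse was the control. All mice carried a plug, so a side difference that exists without one cannot be told apart from one that follows it. The mice are numbered 1037, 1038 and 1039, and each gave 1 library per side.

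The libraries held 14571453 to 15590938 reads, and the limit set by a count of 0, taken as 3 reads, was 0.192 to 0.206 CPM (counts per 1000000 reads of the library). The library labelled left 1038 went against its label. Its bulb interneuron markers summed to 956 CPM against 3368 to 4643 CPM in the other libraries, with 2 of 10 markers at 0. Its cerebellar granule cell markers summed to 5841 CPM against 222 to 313 CPM. It is given apart, and the comparison rests on 5 libraries, 2 left and 3 right. Bulb labels of these 5 libraries matched their markers, with Dlx1, a transcription factor of bulb interneurons, at 304 to 358 CPM and Cdhr1, a mitral and tufted cell gene, at 663 to 829 CPM.

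In the nervous system galanin mostly dampens neuronal activity through receptors that couple to inhibitory G proteins, and its gene is known to be regulated by neuronal activity and injury. Tac1 encodes substance P and neurokinin A, and Tac2 encodes neurokinin B. Tacr1 is the receptor that prefers substance P and Tacr3 the one that prefers neurokinin B, and both signal through phospholipase C. NPY is a peptide of local interneurons, and in the olfactory system ensheathing glia, the cells that wrap sensory axons, are known to make it too. Npy1r, Npy2r and Npy5r encode receptors that lower cyclic AMP, of which Npy2r is known as a presynaptic receptor.

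The promoter of Gal is shown because Gal differed most between the sides. The RefSeq window (GRCm38.p6, chr19:3414515-3414794, minus strand, 5′ to 3′) runs from 250 bases before the annotated start to 30 bases after it. Capitals mark TGACG, the short form of the cyclic AMP response element.
Gal: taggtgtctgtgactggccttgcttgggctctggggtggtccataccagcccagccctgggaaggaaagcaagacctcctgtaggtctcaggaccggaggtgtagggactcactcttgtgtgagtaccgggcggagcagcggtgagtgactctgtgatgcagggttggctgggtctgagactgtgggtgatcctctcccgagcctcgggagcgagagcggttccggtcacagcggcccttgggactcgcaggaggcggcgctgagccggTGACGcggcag
The match begins on base 20 after the start of the longer annotated transcript and 78 bases before that of the shorter one. The full element, TGACGTCA, and the short form, read on both strands (TGACG or CGTCA), were searched in windows of 300 bases. Of 9 genes with a window, 0 held the full element and 4 held the short form, against 1.79% and 20.8% of 32851 windows of all genes. The short form is part of the full one, and a match is a run of letters, not a shown site.

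Besides Gal, matches lay in the windows of Tac1, Tacr1 and Tacr3, each as CGTCA on the gene's strand. They are printed with 25 bases each to show how their flanks differ.
Tac1, chr6:7554854-7554878: cctaaaattgCGTCAtttcgaacac
Tac1, chr6:7555008-7555032: tctacaggctCGTCAcgcctgagat
Tacr1, chr6:82402239-82402263: cccagtcaggCGTCAgaccagccgg
Tacr3, chr3:134828939-134828963: caacccgcgaCGTCAcggaagctgg
Each of these is from the plus strand of GRCm38.p6, and the matches begin 197, 43, 226 and 58 bases before the RefSeq starts. The gene spans given below are from the GENCODE annotation, and for Tac1 and Tacr1 they begin upstream of the RefSeq starts. The second Tac1 match thus lies inside the Tac1 span, which begins at base 7554879. Tac1 was the single gene with 2 matches. Of the 4 genes with a match, Gal was the one called different between the sides.

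Gal was lower in the left bulbs of both mice, and Npy1r was higher. Of the 10 genes, 9 had enough reads to be tested, and 2 were called, Gal lower and Npy1r higher. Over all 14412 genes tested, 9.62% were called, 6.46% lower and 3.16% higher on the left, by edgeR's quasi-likelihood test at an adjusted p under 0.05. These were 456 genes higher and 931 lower, while scaling by library totals alone gave 975 higher and 589 lower. In the fit blocked on mouse, 10.8% of genes were called, and the same 2 members. The median log2 fold change, left over right, was -2.98 for the 1 tested galanin gene, 0.36 for the 4 tachykinin genes and 0.37 for the 4 NPY genes, against 0.005 over all genes tested.

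**Figure D1:**
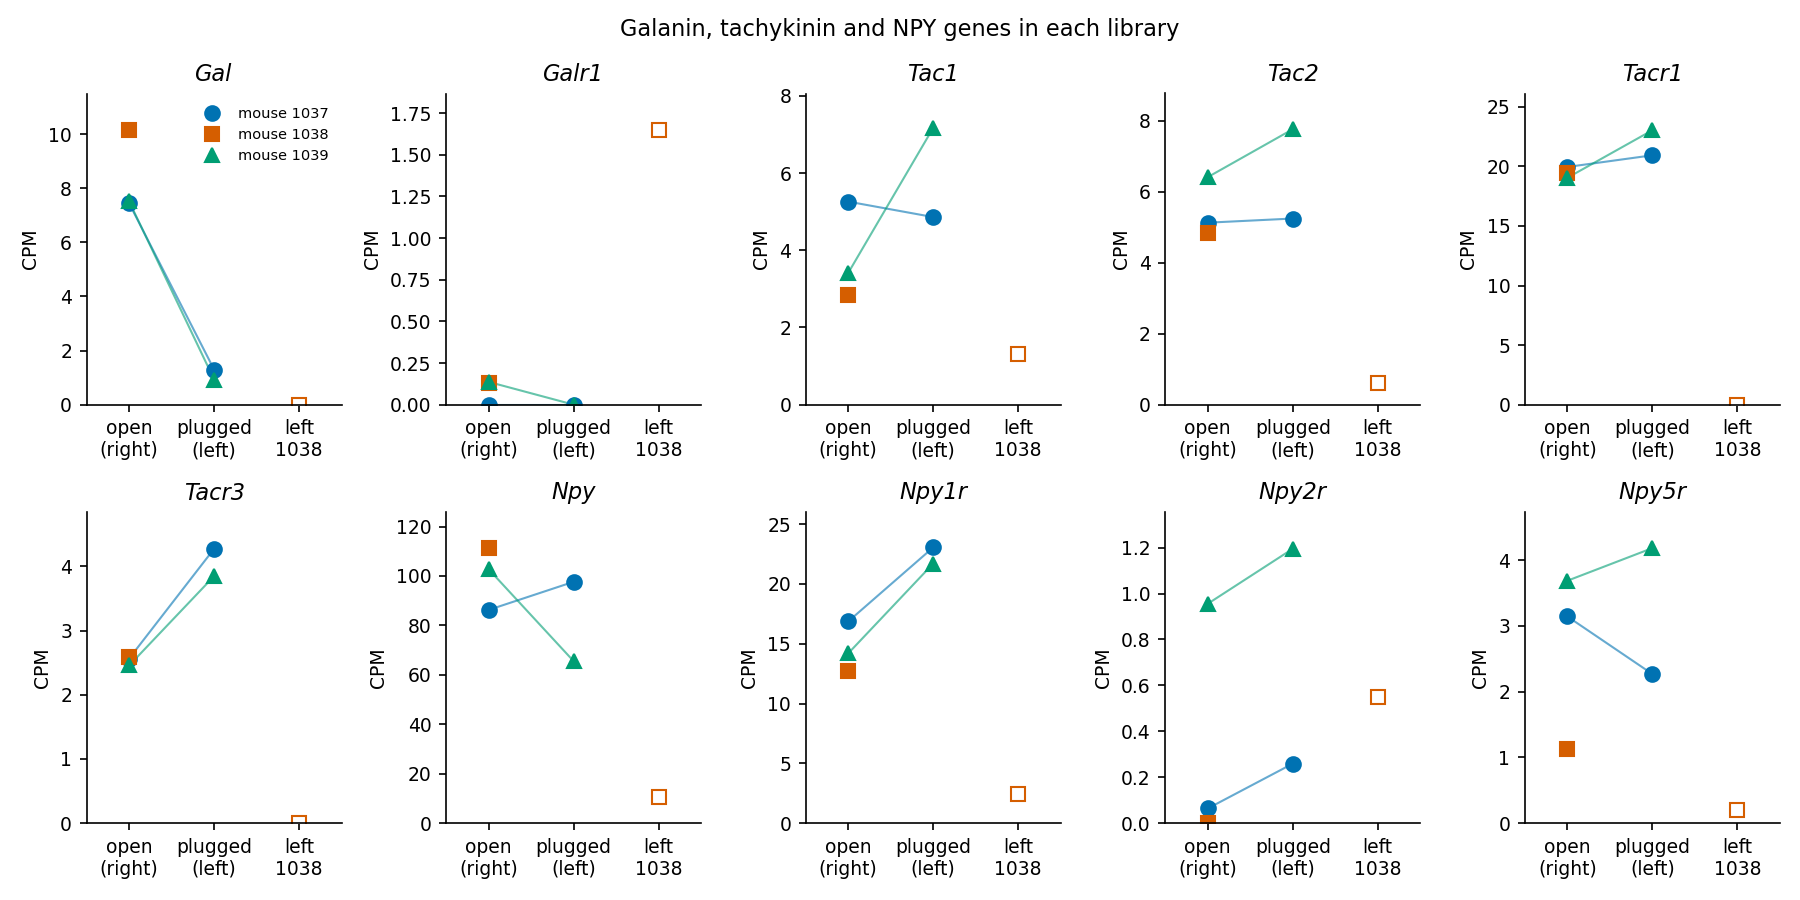
CPM (counts per 1000000 reads) of each of the 10 genes, with open-side (right) and plugged-side (left) libraries in the first 2 columns, and lines joining the bulbs of mice 1037 and 1039. Open squares are the library labelled left 1038. Gal lies at 0.929 and 1.30 CPM on the left, below 7.44 to 10.1 CPM on the right, while Tac1, Npy and Npy5r move in opposite directions in the 2 mice.

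Gal (ENSMUSG00000024907, chromosome 19, 3409915 to 3414544 on GRCm38, minus strand) had 20 reads in left 1037 and 14 in left 1039. Right 1037, 1038 and 1039 had 116, 153 and 110 reads. These counts correspond to 1.30 and 0.929 CPM on the left and to 7.44, 10.1 and 7.51 CPM on the right, so every left library lay below every right one. Both left libraries lay below all right ones for 13.2% of the genes tested and above them for 33.2%, in CPM scaled by library totals. On that scale the median log2 fold change over all genes was 0.087 (edgeR), against 0.005 in the main fit. The 95% Poisson intervals, which cover counting error only, reached up to 2.001 CPM on the left and down to 6.15 CPM on the right. The left bulb held 0.174 of the right bulb's level in mouse 1037 and 0.124 in mouse 1039.

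Fitted over the 5 libraries, Gal fell by 2.98 on the log2 scale (SE 0.27, edgeR, adjusted p = 5.48e-04), which is 7.89-fold. The left libraries averaged 1.11 ± 0.259 CPM (SD, n = 2), and those of the open side averaged 8.36 ± 1.54 CPM (SD, n = 3). With any 1 of the 5 libraries left out, the value stayed between -3.24 and -2.75. In the library labelled left 1038 Gal had 0 reads, which allows up to 0.206 CPM.

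Galr1, the galanin receptor gene on chromosome 18, was hardly read in the bulb. It had 0 reads in both left libraries and in right 1037, and 2 reads each in right 1038 and right 1039. All 5 values were at or under the 3-read limit, so a side difference was not detectable at this depth. Of the other galanin receptors, Galr2 had 1 read in right 1037 and 0 in the other libraries, and Galr3 was not analysed here. Galp, a second galanin-type peptide, had 0 reads in all 6 libraries. Spx encodes spexin, a peptide that acts on galanin receptors, and it stood at 3.56 and 3.72 CPM on the left. On the right Spx stood at 3.02, 1.39 and 3.28 CPM, with a log2 fold change of 0.42 (SE 0.34, edgeR, adjusted p = 0.486). Gal transcripts were thus read in bulbs in which the transcripts of Galr1 and Galr2 were near or under the limit.

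Over the 5 libraries, the genes whose log2(CPM + 0.5) profile was nearest to that of Gal were Adcyap1, the precursor of the peptide PACAP, Sfrp5 and Wif1, both secreted Wnt inhibitors. Their root mean square differences from Gal, each profile centred on its own mean, were 0.223, 0.231 and 0.354. Adcyap1 stood at 5.90 and 5.64 CPM on the left and at 29.95, 29.4 and 23.8 CPM on the right. Likeness over 5 libraries from 3 mice describes these libraries, and with a pseudocount of 1 CPM, 2 of the 3 genes were named again.

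Some markers of other cells moved with Gal. Among all genes tested, 6.46% were called lower and 3.16% higher on the left. Of 10 genes of olfactory sensory neurons, 5 fell and 0 rose, and their summed level was 131 to 192 CPM on the left and 376 to 459 CPM on the right. Without right 1037, 3 sensory genes were called. Of 10 bulb interneuron markers, 4 fell and 0 rose. The ones that fell were Gad1, Gad2, Slc32a1 and Sp8, the last in a call that ended without left 1037. Dlx1, Tshz1 and Meis2 had log2 fold changes of -0.06, 0.04 and -0.17 and were not called. The median of the list was -0.11. Its sum was 3368 to 3880 CPM on the left and 4308 to 4643 CPM on the right, and no interneuron marker was at 0. The largest term of that sum was Gad1, at 1293 and 1485 CPM on the left and 1886 to 2052 CPM on the right. Whether these cells had a part in the Gal difference was not tested. In bulk tissue fewer cells of a type and less RNA per cell cannot be told apart. Hypothalamic neurons also make galanin. Of 6 genes for them, 2 had enough reads to be tested, and Trh, a peptide gene that the bulb itself expresses, fell by 1.30 (SE 0.15, edgeR, adjusted p = 0.00142). The list summed to 43.5 to 54.1 CPM on the left and 95.1 to 137 CPM on the right, nearly all of it Trh. Avp had 0 reads in all 6 libraries, and Hcrt and Oxt had 1 and 3 reads in right 1039 and 0 in every other library.

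The tachykinin precursors were higher in left 1039 than in any other library, and neither passed the test. Of the 4 tachykinin genes edgeR called 0, with 1 at an unadjusted p under 0.05, and DESeq2 and limma-voom called 0 too. Tac1 (ENSMUSG00000061762, chromosome 6, 7554879 to 7565834) had 4.86 CPM in left 1037 and 7.17 CPM in left 1039. On the right it had 5.26, 2.85 and 3.41 CPM in mice 1037, 1038 and 1039. The sides overlapped, and the mice differed in direction, with a left level 0.924 of the right in mouse 1037 and 2.10 in mouse 1039. The log2 fold change was 0.56 (SE 0.29, edgeR, adjusted p = 0.265), and 0.26 without left 1039.

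Tac2 (ENSMUSG00000025400, chromosome 10, 127724478 to 127731768) had 5.25 and 7.77 CPM on the left. On the right it had 5.13, 4.84 and 6.42 CPM. Its values followed the mouse, since both bulbs of mouse 1039 lay above all others. On the log2 scale left over right was 0.17 (SE 0.22, edgeR, adjusted p = 0.689) and -0.13 without left 1039.

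Tacr1 (ENSMUSG00000030043, chromosome 6, 82402334 to 82560104) stood at similar levels in all 5 libraries. It had 20.9 and 23.0 CPM in left 1037 and left 1039. In right 1037, 1038 and 1039 it had 20.0, 19.5 and 19.0 CPM. In CPM scaled by library totals the left libraries lay just above the right ones, which was so for 33.2% of all genes tested. The fitted difference was 0.09 on the log2 scale (SE 0.10, edgeR, adjusted p = 0.633).

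Tacr3 (ENSMUSG00000028172, chromosome 3, 134829007 to 134934579) had 66 and 58 reads on the left, or 4.28 and 3.85 CPM. On the right it had 40, 39 and 36 reads, or 2.57, 2.58 and 2.46 CPM. Both left libraries lay above all right ones, again as for 33.2% of all genes tested. The left bulb held 1.67 times the right level in mouse 1037 and 1.57 times in mouse 1039. The log2 fold change was 0.60 (SE 0.23, edgeR), but the adjusted p of 0.139 missed the threshold. At these counts the 95% Poisson intervals of the sides overlapped, reaching down to 2.92 CPM on the left and up to 3.53 CPM on the right. In data simulated for this comparison, 56.7% of 67 genes changed 1.5-fold were recovered. Those genes were drawn from all levels, so this is not the rate at the counts of Tacr3. Tacr1 and Tacr3 both had 0 reads in the library labelled left 1038. Of their relatives, Tacr2 had 1 read, in left 1039, and Tac4 had 1 read each in left 1037 and right 1037 among the 5 libraries.

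**Figure D2:**
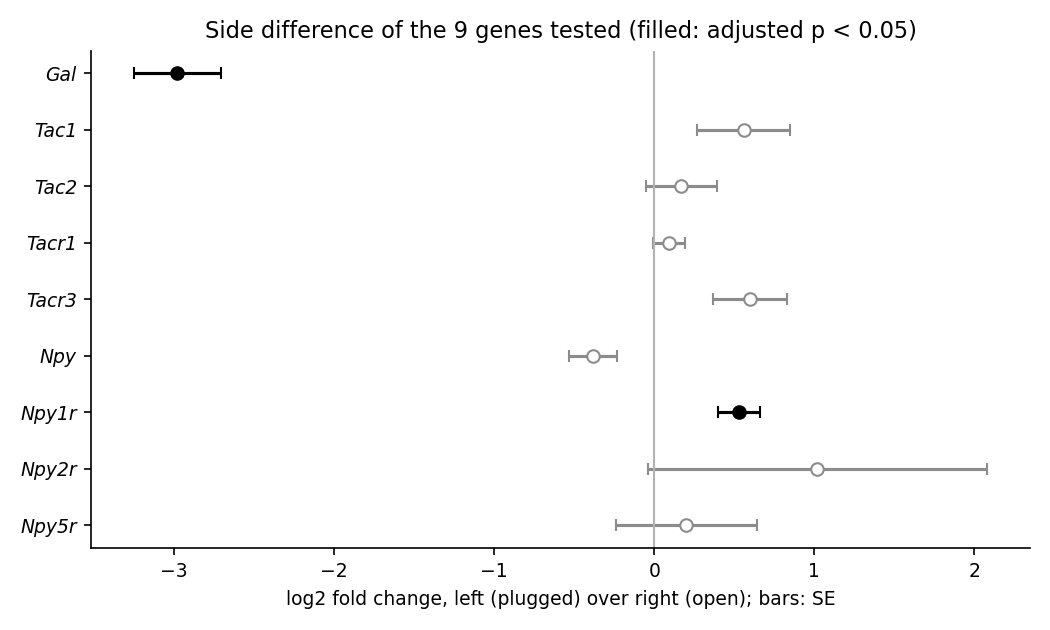
Log2 fold change (left over right) with its SE for the 9 genes tested, from the fit over 5 libraries. Filled points passed an adjusted p of 0.05. Gal lies at -2.98 and Npy1r at 0.53, and the SE of Npy2r, at 1.06, is the widest.

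Among the NPY genes, the peptide was lowest in left 1039 and the receptor Npy1r was higher in both left bulbs. Npy (ENSMUSG00000029819, chromosome 6, 49822710 to 49829507) had 97.6 CPM in left 1037 and 65.5 CPM in left 1039. Right 1037, 1038 and 1039 had 86.3, 111 and 103 CPM. The sides overlapped, and the level on the left was 1.13 times that on the right in mouse 1037 and 0.638 times in mouse 1039. The log2 fold change was -0.38 (SE 0.15, edgeR, adjusted p = 0.159). Left 1039 decided it, since the value was -0.11 without that library and -0.69 without left 1037 (edgeR, adjusted p = 0.00826).

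Of 6 markers of ensheathing glia, 4 were also lowest in left 1039, and these were Fabp7, Frzb, S100b and Sox10. Of the list S100b fell (log2 fold change -0.51, edgeR, adjusted p = 0.0143), a call that ended without left 1039 or right 1037, and 0 rose. Over all genes tested, 6.46% were called lower and 3.16% higher. The summed level of the 6 markers was 604 CPM in left 1037, 372 CPM in left 1039 and 621 to 653 CPM on the right. Fabp7, a fatty acid binding protein of these glia, had 336 CPM in left 1037 and 163 CPM in left 1039. On the right Fabp7 had 354, 354 and 374 CPM. Frzb, a secreted Wnt antagonist, had 70.8 and 52.9 CPM on the left and 71.6 to 85.6 CPM on the right. Neither passed here, while adding a term for mouse brought both past the threshold (edgeR, adjusted p = 0.0145 for Fabp7 and 0.0277 for Frzb), Frzb also by DESeq2 and limma-voom. Sox10 had a log2 fold change of -0.03 and did not pass. Prss56 went the other way, with 27.0 and 19.5 CPM on the left, 13.5 to 17.0 CPM on the right and a log2 fold change of 0.50 (SE 0.15, edgeR, adjusted p = 0.0758). Ngfr, at 2.57 to 3.89 CPM, had its lowest value in right 1037. No marker of the list was at 0 in the 5 libraries, and whether these glia had a part in the Npy values was not tested.

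**Figure D3:**
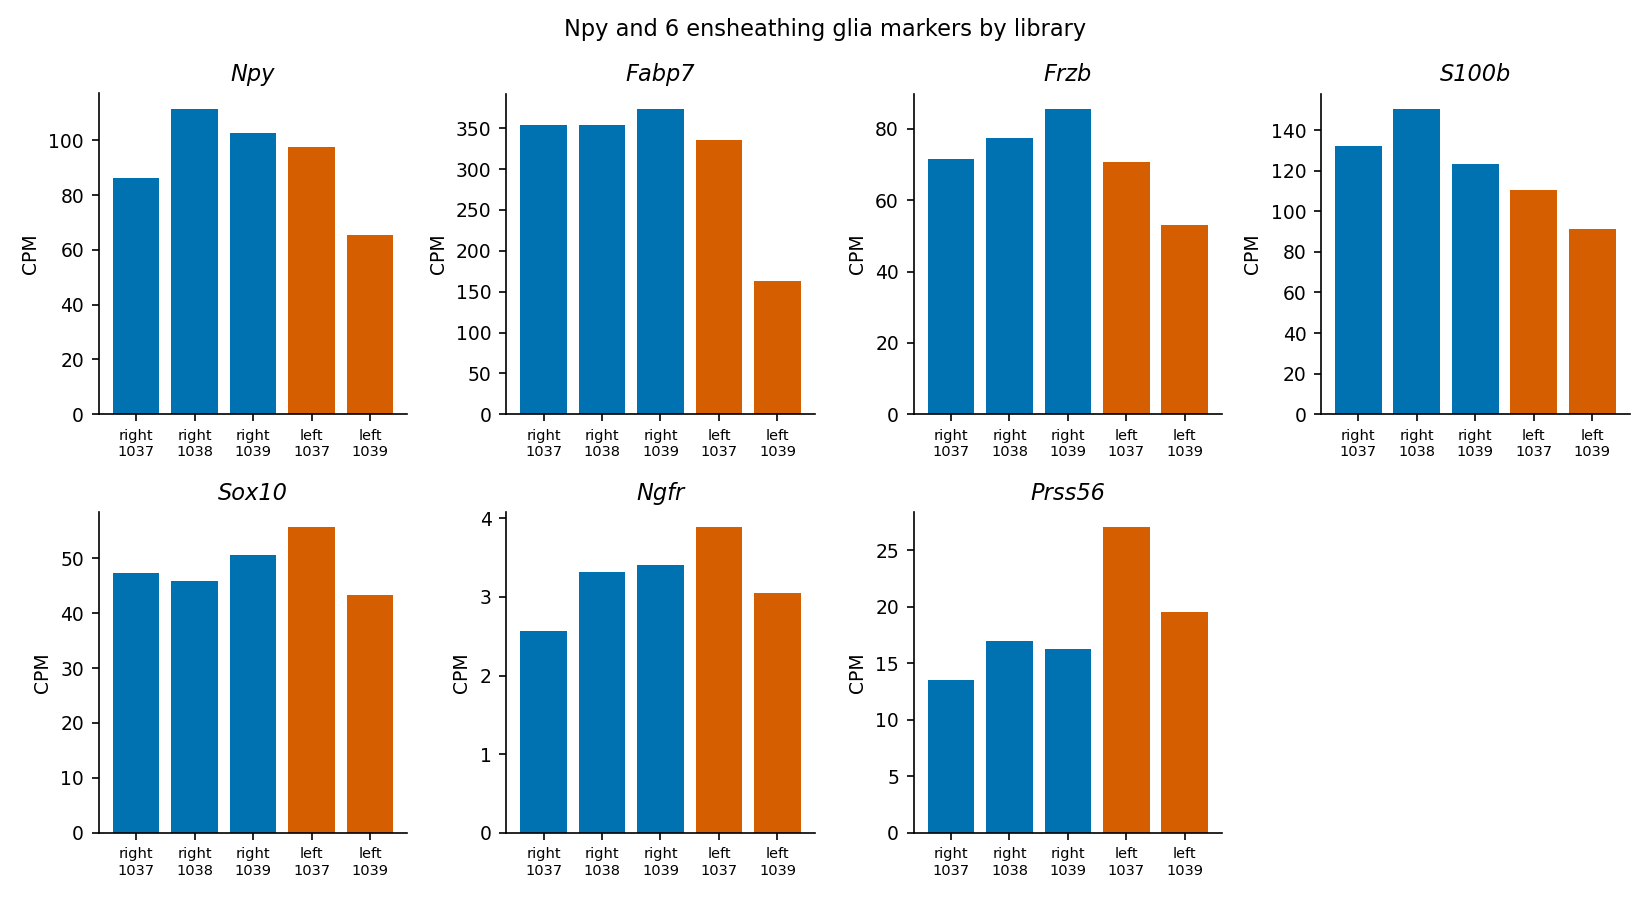
CPM of Npy and of the 6 listed markers of ensheathing glia, 1 bar per library, with the 3 right libraries first and the 2 left ones after. Left 1039 is the lowest library for Npy, at 65.5 CPM, and for Fabp7, Frzb, S100b and Sox10, but not for Ngfr, or for Prss56, which is higher in both left libraries.

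Npy1r (ENSMUSG00000036437, chromosome 8, 66697192 to 66706792) had 356 and 327 reads in left 1037 and left 1039, or 23.1 and 21.7 CPM. Right 1037, 1038 and 1039 had 263, 192 and 208 reads, or 16.9, 12.7 and 14.2 CPM. Every left library lay above every right one in CPM scaled by library totals, which was so for 33.2% of all genes tested. The left level was 1.37 times the right in mouse 1037 and 1.53 times in mouse 1039. Npy1r rose by 0.53 on the log2 scale (SE 0.13, edgeR, adjusted p = 0.0356). Left libraries averaged 22.4 ± 0.961 CPM (SD, n = 2), against 14.6 ± 2.10 CPM in right ones (SD, n = 3).

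The direction of Npy1r held with each of the 5 libraries left out, with values of 0.45 to 0.66. Its call ended without left 1037, left 1039, right 1038 or right 1039 (adjusted p from 0.0758 to 0.136). Among the genes nearest in profile to Npy1r were Cmc4 and Evc2, with root mean square differences of 0.020 and 0.040. Of 7 mitral and tufted cell markers, 2 rose with it, Tbx21 and Reln. Higher calls on the left made up 3.16% of all genes tested. The call of Reln ended when left 1037 or any of the right libraries was left out. Cdhr1, Slc17a7 and Eomes had log2 fold changes of -0.16, -0.03 and -0.06 and were not called, and the list median was 0.02. The 7 markers summed to 2157 to 2562 CPM on the left and 2139 to 2198 CPM on the right, with none at 0. Of the 5 tested cerebellar granule cell markers, Neurod1 and Zic1 rose, Zic1 in a call that ended without right 1037, with a sum over the list of 297 to 313 CPM on the left and 222 to 238 CPM on the right. The defining Cbln3, Gabra6 and Fat2 stayed at 1.26 CPM or less in these 5 libraries. The part of these cells in the Npy1r difference was not tested.

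Npy5r (ENSMUSG00000044014, chromosome 8, 66679965 to 66688128) lies beside Npy1r in the opposite orientation, with 9064 bases between the annotated starts. It had 2.27 and 4.18 CPM in left 1037 and left 1039. Right 1037, 1038 and 1039 had 3.14, 1.13 and 3.69 CPM. The open-side values spread widely, with 17 reads in right 1038 against 49 and 54 in the others. Fitted, Npy5r had a log2 fold change of 0.20 (SE 0.44, edgeR, adjusted p = 0.829), and it was -0.20 with the mouse as a block. Npy1r thus separated the sides, as 33.2% of genes tested did in that direction, while its neighbour Npy5r did not.

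Npy2r (ENSMUSG00000028004, chromosome 3, 82538383 to 82548084) separated the mice and not the sides. It had 18 reads in left 1039 and 14 in right 1039, or 1.20 and 0.956 CPM. In left 1037, right 1037 and right 1038 it had 4, 1 and 0 reads. The 95% Poisson interval of left 1039 began at 0.708 CPM and that of left 1037 ended at 0.663 CPM. On the right, the interval of mouse 1039 began at 0.522 CPM, above those of mice 1037 and 1038, which ended at 0.357 and 0.244 CPM. Between the sides the log2 fold change was 1.02 (SE 1.06, edgeR, adjusted p = 0.604), and -0.42 without left 1039.

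Akr1e1, an aldo-keto reductase, had the profile nearest to Npy2r, at a root mean square difference of 0.065. It had 30.7 and 28.7 CPM in the bulbs of mouse 1039 and 9.81 to 13.5 CPM in the other 3 libraries. The next were Hbb-bs, a beta-globin, at 0.145 and Xlr3b at 0.194. With a pseudocount of 1 CPM, 0 of these 3 genes were named again, so the ranking rests on how the low counts of Npy2r are scaled. Of the other genes of the family, Pyy and Ppy, which encode related peptides, had 0 reads in all 6 libraries. Npy4r had 1 read, in left 1037, and Npy6r had 0 to 2 reads in each library.

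Levels of different genes were compared as CPM per kilobase of all annotated exons, joined over transcripts. The order thus depends on the annotation, which gave 788 bases for Gal and 3399 for Tac1. On the open side the order ran from Npy at 177 ± 22.6 (SD, n = 3) through Gal at 10.6 ± 1.95 to Npy1r at 4.23 ± 0.609 and Tac2 at 3.96 ± 0.610. Next came Tacr1 at 3.00 ± 0.0696, Tac1 at 1.13 ± 0.371, Npy5r at 1.04 ± 0.528 and Tacr3 at 0.674 ± 0.0182. Npy2r at 0.101 ± 0.158 and Galr1 at 0.0300 ± 0.0260 were last. Within this order the ranges of Npy1r and Tac2 overlapped, as did those of Tac1 and Npy5r, of Npy5r and Tacr3, and of Npy2r and Galr1. The other neighbours did not overlap.

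In the left bulbs Npy still led, at 144 ± 40.1 CPM per kilobase (SD, n = 2). Gal, the second on the open side, stood at 1.41 ± 0.329 CPM per kilobase on the left. It lay there below the left means of Npy1r, Tac2, Tacr1 and Tac1, at 6.48, 4.72, 3.39 and 1.77 CPM per kilobase. The left ranges of Gal and Tac1 overlapped, and in left 1037 Gal lay above Tac1, at 1.64 and 1.43 CPM per kilobase.

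**Figure D4:**
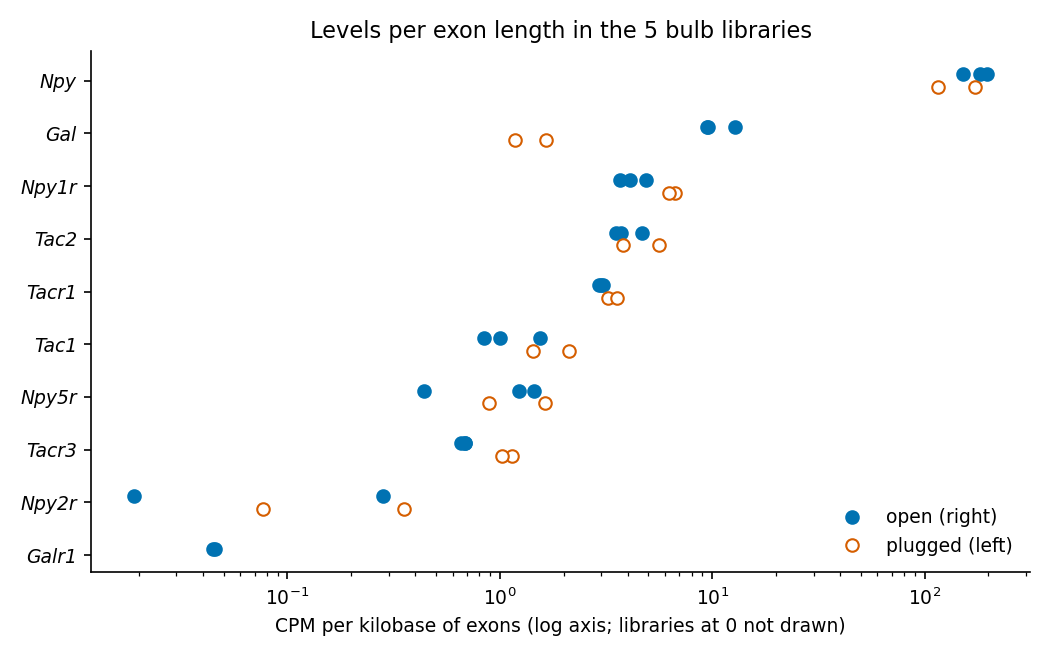
CPM per kilobase of exons on a log axis for the 10 genes, 1 point per library, filled for the open side and empty for the plugged side. Libraries at 0 are not drawn, which leaves out Galr1 in both left libraries and right 1037, and Npy2r in right 1038. Npy lies highest, at 177 on average on the open side, and Gal moves from 10.6 on the open side to 1.41 on the plugged side.

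Genes of peptide precursor processing were partly lower on the left. Of 7 processing genes, 4 fell and 0 rose, with a median log2 fold change of -0.26 against 0.005 over all genes. Calls over all genes tested were 6.46% lower and 3.16% higher. Pcsk1, a convertase that cleaves prohormones, had 25.3 and 23.0 CPM on the left and 71.3, 49.8 and 50.7 CPM on the right. Pcsk1 fell by 1.33 (SE 0.16, edgeR, adjusted p = 0.00148). Pcsk2, Pcsk1n and Scg5 fell by 0.39, 0.22 and 0.30. These 3 calls ended when library totals alone set the scale and in 3 to 5 of the 5 leave-outs each, so that 1 gene of the list was called without left 1037 or right 1038, and 2 without right 1037 or right 1039. Cpe, Pam and Ctsl had 0.06, -0.26 and -0.10 and did not pass, although Pam passed with the mouse as a block (edgeR, adjusted p = 0.0178).

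Of 10 enzymes that degrade released peptides, 2 fell and 0 rose, with a median of 0.09. For comparison, 6.46% of all genes tested were called lower and 3.16% higher on the left. Ece1, an endothelin-converting enzyme, fell by 0.52 (SE 0.09, edgeR, adjusted p = 0.00687), and Lnpep, an aminopeptidase, fell by 0.53 (SE 0.08, adjusted p = 0.00424). Ece2, Thop1 and Ace had 0.07, 0.005 and 0.38 and did not pass. Of 10 G protein and phospholipase C genes through which these receptors signal, 1 fell and 0 rose, also with a median of 0.09. This count is near the share called over all genes tested, 9.62%. Plcb1, a phospholipase C, fell by 0.39 (SE 0.10, edgeR, adjusted p = 0.0343), a call that ended when library totals alone set the scale or without left 1037, right 1037 or right 1039. Gnao1, Gnai1 and Gnaq had 0.15, -0.07 and -0.08 and did not pass.

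Markers of other neurons, some of which make these peptides, were checked as well. Of 4 genes of somatostatin interneurons, a class that often makes NPY, Crhbp fell by 1.10 (SE 0.20, edgeR, adjusted p = 0.00848). Nos1, Sst and Chodl had 0.22, -0.20 and -1.36 and did not pass. In this list 3 genes lay at an unadjusted p under 0.05 (edgeR), and the median was -0.65, with Nos1 going the other way. Chodl had -2.26 to -0.81 with 1 library left out. Over all genes tested, 9.62% were called. Of 6 markers each of striatal neurons, which make Tac1, and of cortical and olfactory nucleus neurons, edgeR called 0 in each list, with 3 and 1 at an unadjusted p under 0.05, and DESeq2 and limma-voom called 0. Ppp1r1b was called without left 1039 or with library totals as the scale, and Neurod2 without left 1037. Of 5 tested Purkinje cell markers 0 were called by any of these tools, and 0 lay at an unadjusted p under 0.05. Striatal markers summed to 51.0 to 57.5 CPM on the left and 48.7 to 49.4 CPM on the right. Those of cortical and olfactory nucleus neurons summed to 34.5 to 42.0 CPM on the left and 31.7 to 34.1 CPM on the right. For both lists the sums of the left libraries lay above those of the right ones, and none of their genes was at 0. The largest term of the striatal sum in each of these libraries was Ppp1r1b, with 35.4 and 28.5 CPM on the left and 22.4 to 25.2 CPM on the right. The median log2 fold change of the striatal list was -0.19, and Rgs9 and Adora2a had -0.33 and -0.56. The part of these cells in the Tac1 values was not tested.

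In the library labelled left 1038, read counts of the 10 genes were 0 for Gal, Tacr1 and Tacr3 and 153 for Npy, or 10.5 CPM. Npy1r had 2.40 CPM, Tac1 1.30 CPM, Tac2 0.618 CPM and Npy5r 0.206 CPM there, each below every bulb library. Npy2r, at 0.549 CPM, lay within the range of the bulb libraries, and Galr1 lay above it. With this library added, edgeR called 0 of the 14209 genes tested (1196 at an unadjusted p under 0.05), and the value of Gal was -3.54 (SE 0.91, adjusted p = 0.554).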

How the data were processed

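The deposited table gives read counts per gene and library, with no normalization, per the file headers, and also RPKM values and a gene length. The authors' RPKM were not used, because their gene length was, to within 1 base, the whole genomic span with its introns for 78.41% of genes. The submitters' processing notes name GRCm38, TopHat2, HTSeq 0.6.1p2, cutadapt 1.2.1 and DESeq 1.18.0 without saying what each was used for. Use of strand in counting: not given in the sources used here. None of the 10 genes overlaps another gene of GENCODE M21. Of 22095 genes, 21852 matched a symbol by identifier. Libraries differed in counts (0 identical pairs), and 0 columns belonged to other samples.

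The members, gene lists and tests were chosen with earlier results of these data known, as was setting the library labelled left 1038 apart. Genes were tested with edgeR 4.0.16 (quasi-likelihood, TMM, filterByExpr, side as the term, two-sided) in R 4.3.3, with Benjamini-Hochberg adjustment over all genes tested and calls at 0.05. The SE is the log2 fold change divided by the square root of F. CPM were computed on library totals. Named genes were all members, and of each other list the called genes and up to 3 of the rest with the highest mean CPM. In the text a few of these are left out of the cell type lists, and Avp, Hcrt, Oxt, Prss56, Ngfr and the genes of the 3 families with few reads were named after their values were seen. Likeness was ranked over genes of at least 1 CPM on average, for called members and those with the largest change in each direction. 1 gene of that ranking is not reported here. Promoters are from RefSeq on GRCm38.p6. Which samples are separate animals comes from the labels.

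Bulbs of a mouse come from the same animal, so mouse numbers pair the libraries. The correlation of their deviations from the side means was 0.238 in both mice 1037 and 1039. The 2 left deviations are mirror images, so these values are not independent. No block was in the main fit. On simulated counts with the means, dispersions and sizes of the 5 libraries (14412 genes), the test recovered 56.7%, 82.1% and 93.9% of genes changed 1.5-fold, 2-fold and 4-fold, and 9.36% of its calls were false. Simulated libraries were independent, with no pairing by mouse, and fewer genes were changed than were called in the real data. Alternatives were other scalings and filters, DESeq2 1.42.0, limma-voom (limma 3.58.1), the block, all 6 libraries and each library left out.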

Additional observations from a re-analysis of the deposited data

Results flagged for a closer look

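Galr1 stood at 1.65 CPM (24 reads, 95% Poisson interval 1.05 to 2.45 CPM) in the library labelled left 1038, which the comparison does not use. The right libraries, with 0, 2 and 2 reads, had intervals that ended at 0.237, 0.479 and 0.493 CPM. It is listed because a signal in a library outside the comparison lay above the level of the control side. Purkinje cell markers summed to 5411 CPM and cerebellar granule cell markers to 5841 CPM in that library, and their part in the Galr1 reads was not tested.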

How the results depend on the processing

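Gal kept its direction under all 13 alternatives and its call under 12, the exception being all 6 libraries. Tac1, Tacr3, Npy and Npy1r kept their direction under all 13 as well, and Npy1r its call under 8. With all 6 libraries 0 genes and 0 of the 10 members were called, Npy1r had 0.03, and the values of Tac2, Tacr1 and Npy5r turned to -0.33, -0.49 and -0.33. With 1 library left out, the number of genes called was 660 to 1096 and that of members 1 to 2. Without left 1039, 885 genes were called, and Tac2, Npy2r and Npy5r had -0.13, -0.42 and -0.29, the lowest of their leave-outs, against highest values of 0.43, 1.74 and 0.58 without left 1037. The count was 669 without right 1037 and 660 without right 1038, where Npy5r had -0.16. With the mouse as a replicate block, which pairs the bulbs, 1553 genes and 2 members were called, Npy5r turned to -0.20, and no call of a member changed. DESeq2 gave no adjusted p for Npy2r, and the filter of 1 CPM in 3 libraries, all 6 libraries and the fit without right 1039 did not test it. The cause of these changes was not tested. Of 84 list medians under alternatives, 52 stayed within 1 SD of the right libraries, and of 84 list counts 63 stayed within 1.5 times. Only 2 left libraries were compared. In the main fit, p-values measure the spread between libraries within a side, and the pairing of bulbs by mouse is not used. Counts of about 20 reads or fewer limit what can be seen. They hold for Galr1 and Npy2r, for Gal in the left libraries and for Npy5r in right 1038.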
